A study of Mus musculus with 3 samples.

Results

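The genes described here are 10 genes of lipid binding, activation and transport, Fabp7, Fabp5, Fabp4, Fabp3, Acsbg1, Dbi, Apoe, Apod, Clu and Cd36, out of 32227 genes counted in nuclei of mouse dorsal root ganglia (DRG). They were chosen by name, with their UMI levels in each cell class and library, and in free RNA, already in view from earlier results. The levels below are therefore a description, and the tests describe these libraries and are no independent evidence for the choice of the genes. To compare the ganglion of adult and aged animals, the study made single-nucleus libraries from lumbar DRG of untreated C57BL/6 mice that the labels call male, 1 library at 3 months (adult) and 2 libraries at 21 months (aged). The study's design text gives another age for the aged mice and its methods give another sex for aged mice, and the sample labels are used here. The study calls the libraries biological replicates, and the labels do not say how many animals entered one. With 1 adult library, age cannot be told apart from whatever else set that library apart.

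The counts are unique molecular identifiers (UMIs), 1 for each captured transcript. The libraries held 167664164, 95647106 and 69045987 UMIs, and 11518, 5130 and 2611 barcodes passed as nuclei (over 1000 genes each), with 3269 to 4900 UMIs in the median nucleus. At most 1 kept barcode was shared between any pair of libraries. Barcodes with 10 to 99 UMIs were read as free RNA, the RNA released from broken cells that every barcode takes up, and their levels are given beside those of the nuclei. Levels are in CPM, the UMIs of a gene scaled to a common total of UMIs of its class and library, in the order adult, aged 1, aged 2. Nuclei were clustered without these genes and named from markers as satellite glial cell (SGC)-like (2933, 421 and 222 nuclei), non-myelinating Schwann cell (NMSC)-like (769, 297 and 145), myelinating Schwann cell (MSC)-like (651, 586 and 203), neuron-like (4589, 2485 and 1309), fibroblast-like (1172, 381 and 191), endothelial-like (186, 173 and 59), mural-like (57, 18 and 3), myeloid-like (103, 226 and 198) and lymphocyte-like (205, 120 and 61). Nuclei of 4 clusters with markers of several classes were left out. SGC and Schwann cell markers together did not exclude a cluster, and the NMSC-like cluster also held the SGC markers Kcnj10, Ednrb and Lgr5. Erythroid-like nuclei (15, 25 and 44) were too few in the adult library for a test, and statements below on the classes, their order and their ranges leave them out unless they are named.

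Fatty acids do not dissolve in the cytosol and are carried there by small fatty acid binding proteins, while acyl-CoA synthetases activate them and the acyl-CoA binding protein holds the activated form. Between cells, lipids travel on apolipoproteins and are taken up by lipoprotein receptors and by scavenger receptors such as CD36. In the peripheral nervous system, SGCs wrap the neuronal soma and Fabp7 is widely used to label them, Schwann cells make the lipid-rich myelin, and macrophages take up and recycle lipid.

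The promoters of 3 genes whose levels moved with age below are shown. The levels (CPM) of Fabp7 and Acsbg1 were lower in aged glia, and that of Apod was higher in aged MSC-like and fibroblast-like nuclei. Of the 10 genes, 7 had an entry in the RefSeq table (build GRCm38.p6), and these are the windows that overlap no annotated gene and belong to a gene that moved. Each runs from 250 to 51 bases before the start, 5′ to 3′ on the strand of the gene. Capitals mark every match, on either strand, to TATAAA (the TATA box), CCAAT (the CCAAT box), GGGCGG (the GC box) and AGGTCA (the half-site bound by many nuclear receptors).
Fabp7, chr10:57784673-57784872, plus strand: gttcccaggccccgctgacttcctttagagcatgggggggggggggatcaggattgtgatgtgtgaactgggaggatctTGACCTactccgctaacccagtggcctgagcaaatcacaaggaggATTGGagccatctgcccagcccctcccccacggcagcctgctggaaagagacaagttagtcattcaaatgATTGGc
Acsbg1, chr9:54661936-54662135, minus strand: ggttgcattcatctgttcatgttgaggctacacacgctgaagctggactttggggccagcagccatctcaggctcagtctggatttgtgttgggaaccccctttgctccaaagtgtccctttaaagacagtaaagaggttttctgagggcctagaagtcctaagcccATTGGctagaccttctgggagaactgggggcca
Apod, chr16:31314859-31315058, minus strand: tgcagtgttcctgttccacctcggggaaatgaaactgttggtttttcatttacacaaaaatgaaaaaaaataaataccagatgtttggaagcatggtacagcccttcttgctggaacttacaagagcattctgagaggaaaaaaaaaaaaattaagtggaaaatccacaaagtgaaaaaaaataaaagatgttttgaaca
The Fabp7 window held 3 matches, a pair of CCAAT boxes and 1 half-site, the Acsbg1 window held 1 CCAAT box, and the Apod window held none of the 4 motifs. Positions nearer the start than 51 bases lie outside the windows, so a TATA box there was not looked for. Over 27025 promoters of the same length, CCAAT was found in 28.9%, GGGCGG in 24.5%, AGGTCA in 11.2% and TATAAA in 9.48%, so these matches are common letters, given as a description of the windows.

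The intracellular fatty acid binding proteins differed in where their RNA was found. Fabp7, the binding protein of glia (chr10:57784881-57788450 in GRCm38, as are the places below), was highest in SGC-like nuclei, at 353, 180 and 169 CPM. Its level in NMSC-like nuclei was 202, 45.6 and 27.6 CPM, and the means of the other classes lay between 21.0 and 48.7 CPM. Free RNA held Fabp7 at 203, 71.2 and 50.6 CPM, so only SGC-like nuclei had a mean above it, by 1.74, 2.53 and 3.33 times in adult, aged 1 and aged 2. With free RNA read from barcodes of 10 to 49 UMIs (158, 56.9 and 55.3 CPM), the NMSC-like mean of 91.7 CPM also lay above the free RNA mean, of 90.1 CPM. In the order of class means every neighbouring pair overlapped in the spread over libraries, SGC-like and NMSC-like nuclei included, although SGC-like nuclei lay above NMSC-like nuclei within each of the 3 libraries. Erythroid-like nuclei held 213, 12.2 and 24.5 CPM, from 8, 1 and 4 UMIs. The share of SGC-like nuclei with a Fabp7 UMI was 53.9% (95% interval 52.1 to 55.8), 59.1% (54.3 to 63.9) and 57.7% (50.9 to 64.2), against 15.6%, 2.5% and 3.28% of lymphocyte-like nuclei. SGC-like nuclei were deeper in the aged libraries, with median UMIs of 3183, 7371 and 8099.5 against 2003, 2334 and 2565 in lymphocyte-like nuclei. With every nucleus thinned to 1000 UMIs, the shares in SGC-like nuclei were 25.4%, 14.7% and 13.5%, and in lymphocyte-like nuclei 9.76%, 2.5% and 1.64%.

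Fabp4, the binding protein of capillary endothelium, adipocytes and macrophages (chr3:10204088-10208576), lies within 288636 bases of chromosome 3 together with Fabp5 and 3 further genes of the family. It stood at 77.8, 47.0 and 37.0 CPM in endothelial-like nuclei and at 3.47, 101 and 83.2 CPM in myeloid-like nuclei. The mean of every other class was 4.42 CPM or less, near or well below the free RNA at 4.54, 4.39 and 3.64 CPM. The 3 endothelial-like values did not overlap those of the class next in order. Fabp5 (chr3:10012548-10016607), a binding protein found in many cell types, had its highest mean in myeloid-like nuclei, at 52.1, 154 and 129 CPM, and the means of the 9 classes, 34.9 to 112 CPM, and of erythroid-like nuclei, 22.4 CPM, lay below its free RNA level of 242, 213 and 232 CPM. Fabp3 (chr4:130308595-130315463), the binding protein of heart and muscle, had a mean of at most 18.2 CPM in every class, in neuron-like nuclei, and stood at 74.1, 52.1 and 50.5 CPM in free RNA. For Fabp5 and Fabp3, therefore, no class stood above the free RNA, and every neighbouring pair of class means overlapped. Fabp3 also overlaps Gm10570 and Zcchc17 on the opposite strand, and whether counting used strand was not given in the sources used here.

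Acsbg1 (chr9:54604877-54661870), an acyl-CoA synthetase known from brain and steroid-making tissue, was highest in SGC-like and NMSC-like nuclei. It stood at 653, 513 and 574 CPM in SGC-like nuclei and at 269, 107 and 155 CPM in NMSC-like nuclei, while the other classes had means of 4.42 to 36.4 CPM and free RNA had 74.1, 44.3 and 31.4 CPM. Neither of the first pair of classes overlapped the class after it in order, with erythroid-like nuclei, at 213, 12.2 and 6.13 CPM from 8, 1 and 1 UMIs, left out. A UMI of Acsbg1 occurred in 79.6%, 87.2% and 91.9% of SGC-like nuclei and in 4.88%, 2.5% and 4.92% of lymphocyte-like nuclei. After thinning to 1000 UMIs the SGC-like shares were 45.6%, 40.6% and 42.8%, and the lymphocyte-like shares 1.95%, 0% (0 of 120, which allows up to 2.5%) and 3.28%. Dbi (chr1:120113280-120121078), which encodes the acyl-CoA binding protein, was highest in the 3 glial classes, at 393, 247 and 164 CPM in NMSC-like, 289, 172 and 94.97 CPM in MSC-like and 238, 177 and 131 CPM in SGC-like nuclei. These 3 classes overlapped one another over libraries, although NMSC-like nuclei lay above the other pair within each library, and the free RNA level of 403, 231 and 176 CPM was above all of them except NMSC-like nuclei in aged 1. Read from barcodes of 10 to 49 UMIs, free RNA held 295, 165 and 163 CPM of Dbi, which NMSC-like nuclei exceeded in all 3 libraries.

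The secreted lipid carriers were abundant in free RNA, and each had another class at the top. Apoe (chr7:19696109-19699188), the main apolipoprotein of the nervous system, stood at 823, 1292 and 922 CPM in SGC-like nuclei, with means of 807 ± 247 CPM in NMSC-like and 694 ± 155 CPM in myeloid-like nuclei (SD over 3 libraries) and 178 ± 55.9 CPM in neuron-like nuclei, the lowest. Its free RNA level of 1324, 1492 and 1177 CPM was above every class mean. A UMI of Apoe occurred in 78.9%, 96.4% and 91.9% of SGC-like nuclei (46.5%, 58.7% and 49.5% after thinning) and in 41.0%, 52.5% and 32.8% of lymphocyte-like nuclei (21.9%, 38.3% and 18.0%). Apod (chr16:31296192-31314808), a lipocalin that carries small hydrophobic molecules such as arachidonic acid, was highest in fibroblast-like nuclei, at 1491, 2866 and 3455 CPM, followed by MSC-like nuclei at 706, 1562 and 1656 CPM. Both stood apart from the remaining classes, whose means were 77.6 to 457 CPM, and free RNA held 903, 1287 and 1183 CPM. Clu (chr14:65968483-65981547), the secreted chaperone clusterin, had its highest mean in endothelial-like nuclei, 136 ± 29.2 CPM, then 87.9 CPM in fibroblast-like and 86.1 CPM in neuron-like nuclei, with free RNA at 250, 314 and 258 CPM. Cd36 (chr5:17781690-17888801), the receptor for long-chain fatty acids and oxidised lipoproteins, was the opposite case. It stood at 128, 276 and 365 CPM in myeloid-like nuclei, and overlapped erythroid-like nuclei, at 239, 134 and 239 CPM, but not the mural-like nuclei next in order, against 7.38, 10.0 and 13.6 CPM in free RNA and means of 1.94 to 39.6 CPM in the other 8 classes.

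**Figure D1:**
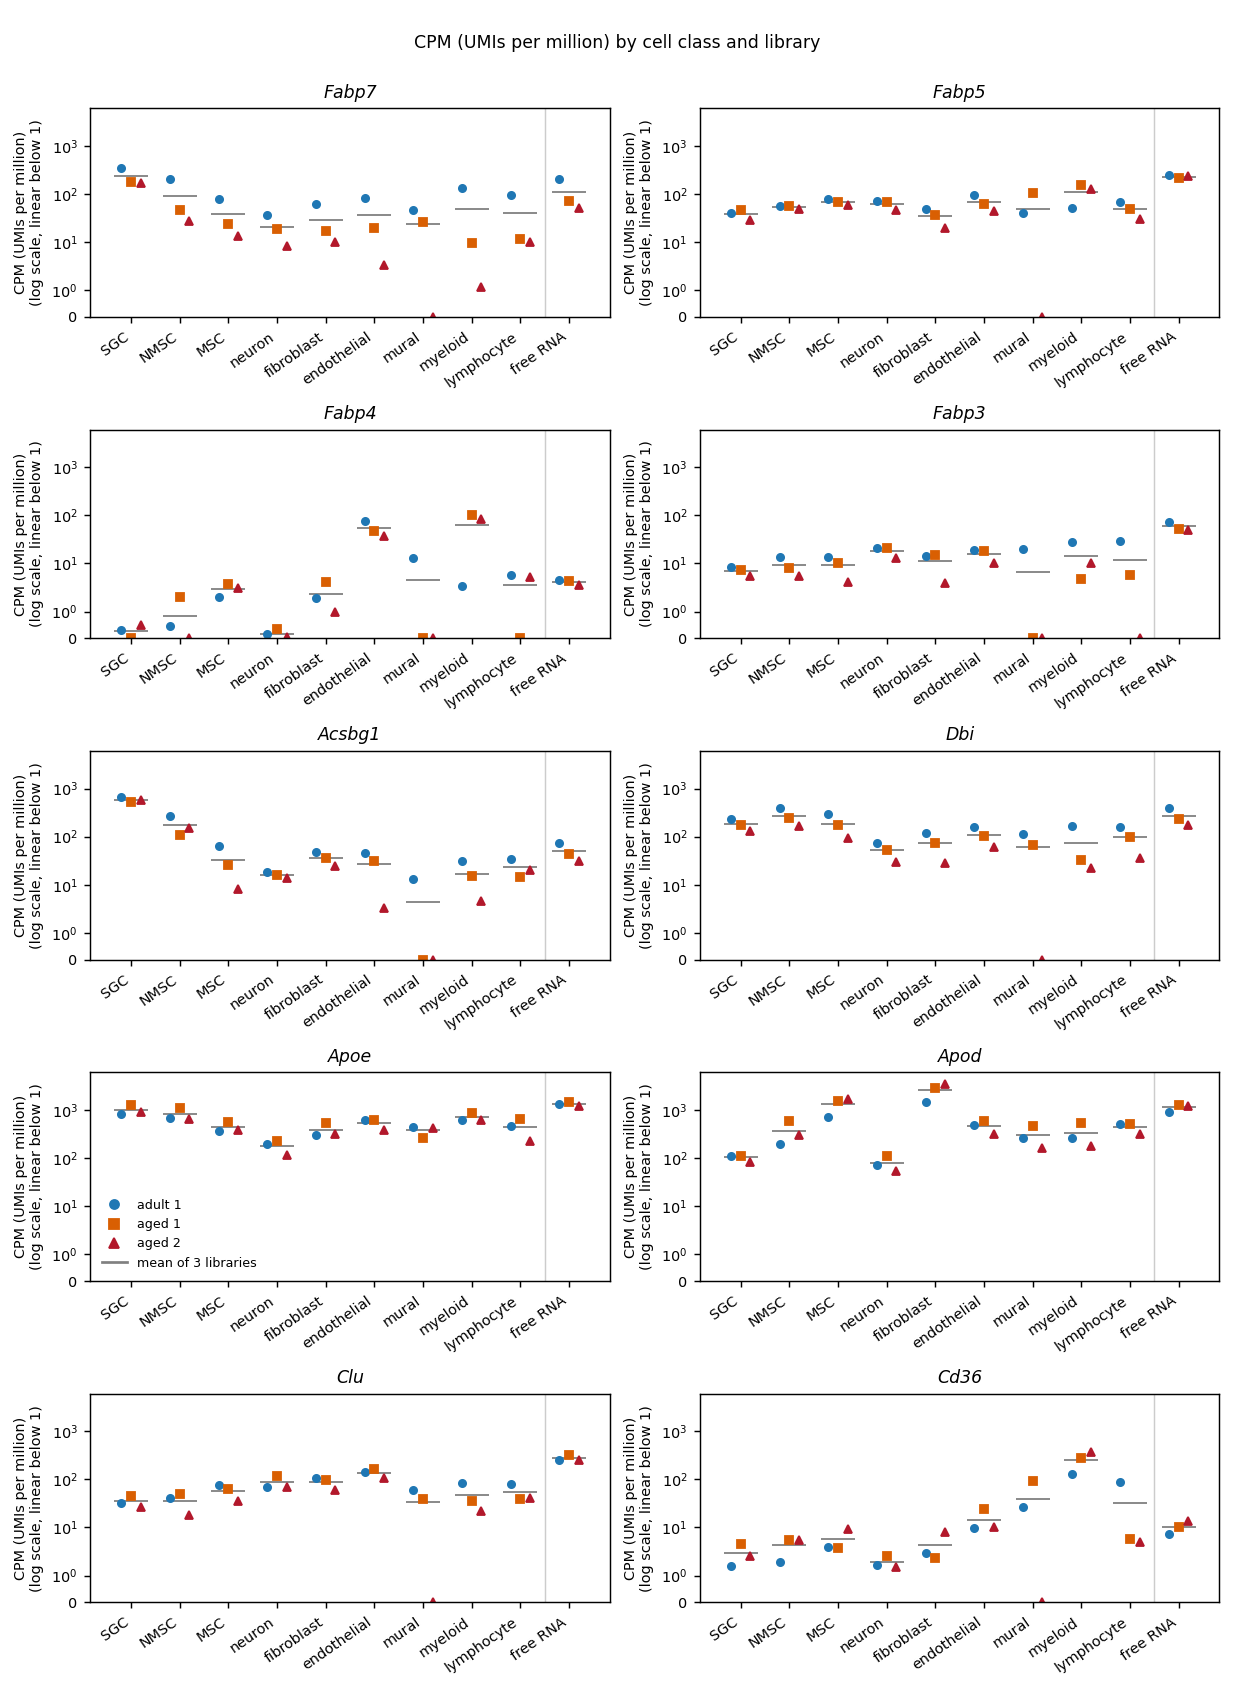
Level of each gene (CPM, log axis, linear below 1) in each cell class and in free RNA, with 1 point for each library and a line at the mean of 3 libraries. Acsbg1 in SGC-like nuclei (653, 513 and 574) and Cd36 in myeloid-like nuclei (128, 276 and 365) stand well above free RNA, while Fabp5 and Fabp3 stand below it in every class mean.

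Since classes differed in the number and depth of their nuclei, the class with the highest level was not always the class with the most UMIs. SGC-like nuclei held 68.3%, 56.9% and 61.4% of the Acsbg1 UMIs of all kept nuclei, whereas neuron-like nuclei held between 72.5% and 82.6% of those of Clu and between 71.6% and 76.7% of those of Fabp5. For Fabp4, endothelial-like nuclei held 57.1% of 84 adult UMIs, and myeloid-like nuclei held 57.2% of 187 and 77.4% of 93 UMIs in the aged libraries. For Cd36, myeloid-like nuclei held 13.1% of 282 UMIs in the adult library, where neuron-like nuclei held 40.4%, and 57.3% of 508 and 70.9% of 446 in the aged ones. The class with the most Fabp4 and Cd36 UMIs thus differed between the adult library and both aged libraries, along with the number of myeloid-like nuclei.

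Neuron-like nuclei were not uniform. The cluster with neurofilament (NF) neuron markers, the large myelinated sensory neurons, held Clu at 402, 582 and 572 CPM, above the free RNA in all 3 libraries. The other neuron types, each taken whole, held 18.5 to 102 CPM, and the single cluster next in order, led by Htr3a, held 165, 289 and 248 CPM, below NF in each library. Fabp3 stood at 66.0, 84.0 and 78.6 CPM in NF nuclei and at 1.38 to 30.4 CPM in the other types taken whole. Single clusters of those types were as high, with 91.5, 72.2 and 84.0 CPM of Fabp3 in a cluster led by Th and 175, 131 and 105 CPM in a small cluster led by Lypd1 (36, 48 and 12 nuclei). A cluster led by Nxph1, itself an NF marker, had too few such markers to be named NF. It was larger (763, 332 and 131 nuclei) and held Clu at 77.1, 119 and 107 CPM and Fabp3 at 13.7, 18.0 and 18.3 CPM. For Fabp5 the NF cluster held 161, 143 and 159 CPM, and 4 single clusters of other types had higher means, up to 267, 217 and 196 CPM in the Th cluster. Dbi and Apoe in NF nuclei, at 249, 136 and 123 CPM and at 794, 592 and 408 CPM, were below their free RNA level in every library. NF nuclei numbered 385, 468 and 141. Mitochondrial UMIs were 0.605% to 0.770% in the NF cluster and the 4 clusters above it in Fabp5, and at most 0.392% in the other neuron clusters. The part of mitochondrial or cytoplasmic RNA in these levels was not tested.

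**Figure D2:**
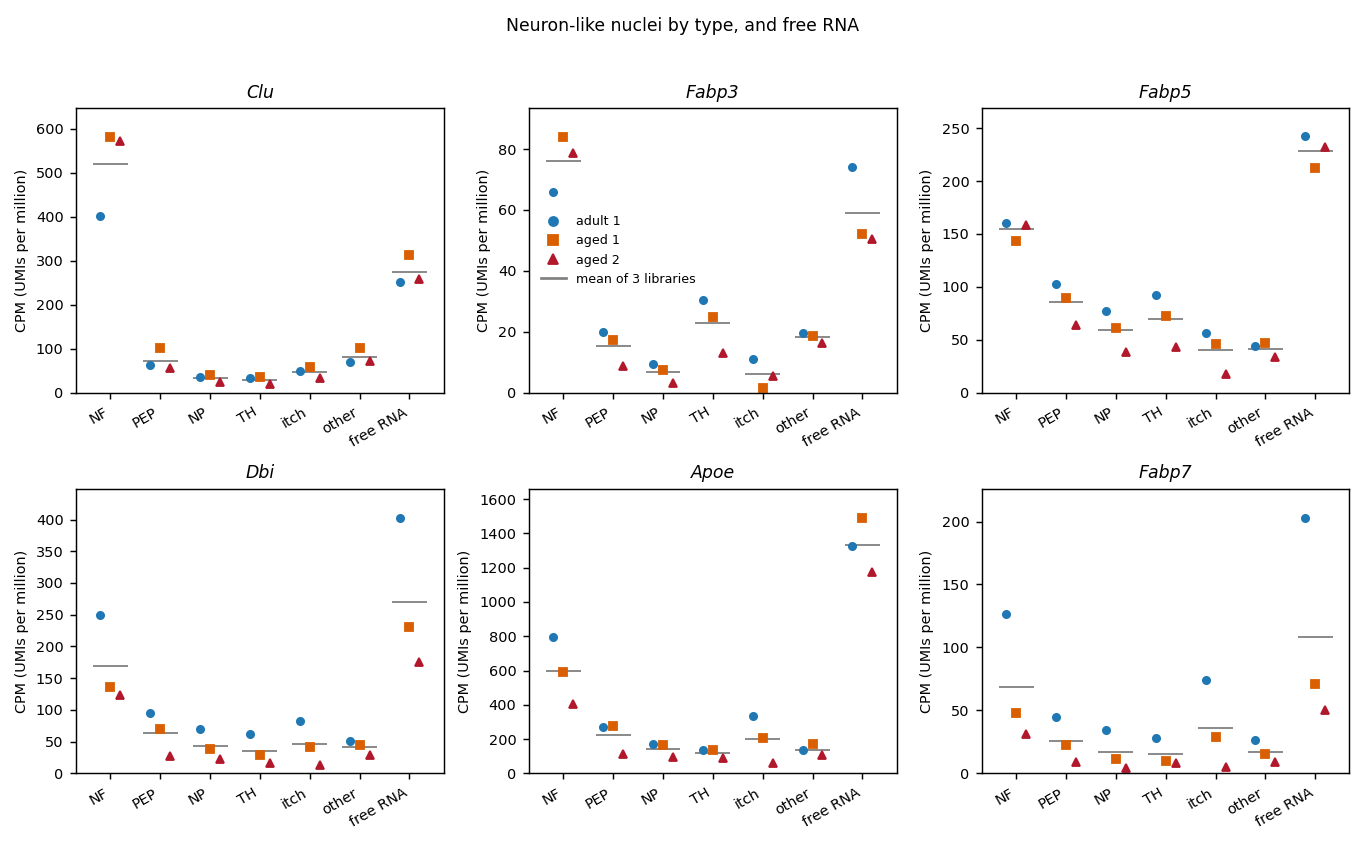
Level of 6 genes (CPM, linear axis) in the types of neuron-like nuclei and in free RNA, with 1 point for each library and a line at the mean of 3 libraries. Clu (402, 582 and 572) and Fabp3 (66.0, 84.0 and 78.6) are highest in the NF type in all 3 libraries when each type is taken whole.

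To ask how these genes changed with age, UMI sums of each class were compared between the adult and the aged libraries with edgeR's quasi-likelihood test, with p-values adjusted over all genes tested in the class. The p-values rest on the spread between the 2 aged libraries, and the single adult library is assumed to vary like them. edgeR shares this spread over the genes tested, so a small p need not mean that a gene's own aged values were close. In neuron-like nuclei the SE was 0.22 for Fabp7, with aged levels of 18.4 and 8.34 CPM. For Acsbg1, at 16.2 and 13.5 CPM, it was 0.23. A permutation of 1 against 2 libraries cannot give a p below 0.333. Of 80 pairs of a gene and a class, 74 could be tested, and 6 were called higher and 19 lower in the aged libraries at an adjusted p under 0.05. In SGC-like nuclei 3 of 9 genes were lower and none higher, where 8.84% and 7.11% of all genes tested were called lower and higher. In NMSC-like nuclei 3 of 8 were lower and 1 higher (all genes 5.07% and 4.45%), and in MSC-like nuclei 4 of 9 were lower and 1 higher (6.34% and 3.94%). In neuron-like nuclei 2 of 10 were lower (7.25% of all genes, with 1.73% higher), in fibroblast-like nuclei 2 of 9 were lower and 1 higher (2.57% and 2.16%), and in endothelial-like nuclei 1 of 10 was lower (1.16%, with 0.293% higher). In myeloid-like nuclei 2 of 10 were lower and 3 higher (3.72% and 4.42%), and in lymphocyte-like nuclei 2 of 9 were lower (2.43%, with 0.87% higher). The median log2 change of the tested genes was between −1.11 and −0.34 in the 8 classes, and that of all genes tested between −0.00 and 0.04.

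The level of Fabp7, as a part of all UMIs, was lower in the aged libraries in each of the 8 classes tested. In SGC-like nuclei this does not mean fewer Fabp7 UMIs in each nucleus. Aged SGC-like nuclei held more UMIs in the median (3183, 7371 and 8099.5), and their share with a Fabp7 UMI, given above, was not lower before thinning. In every other class tested, Fabp7 UMIs for each nucleus were fewer in both aged libraries. NMSC-like nuclei, for example, held 423, 67 and 20 Fabp7 UMIs in 769, 297 and 145 nuclei. In SGC-like nuclei, where 3511, 677 and 335 UMIs stood behind the levels given above, the log2 change was −1.19 ± 0.13 (SE; edgeR adjusted p = 5.16e-18), and both aged libraries lay at about the same level, below the adult one. In NMSC-like nuclei it fell by 2.57 ± 0.26 on the log2 scale (edgeR adjusted p = 2.52e-20). In MSC-like nuclei, at 78.5, 23.2 and 13.3 CPM, it fell by 2.08 ± 0.26 (edgeR adjusted p = 9.35e-14). The means of NMSC-like (91.7 CPM) and MSC-like nuclei (38.3 CPM) lay below the free RNA mean of 108 CPM, as did those of the other 5 classes. Changes in these 5 ran from −1.56 in neuron-like to −4.48 in myeloid-like nuclei. In myeloid-like nuclei the aged libraries held 10 UMIs and 1 UMI against 39 in the adult one. Without aged 1 the change was −2.23 in neuron-like and −6.50 in myeloid-like nuclei, and without aged 2 the myeloid-like value was −3.61. DESeq2 called the fall in 3 of the 8 classes, SGC-like, NMSC-like and MSC-like nuclei. Free RNA itself held less Fabp7 in the aged libraries, by −1.74 on the log2 scale, and the changes were recomputed with it subtracted from the sums. The calls in SGC-like (−1.22), NMSC-like (−2.78), MSC-like (−1.78), fibroblast-like (−2.11) and myeloid-like nuclei (−5.38) then remained, those in neuron-like (−1.16, edgeR adjusted p = 0.532) and lymphocyte-like nuclei (−3.98, 0.758) were lost though the estimates stayed below 0, and endothelial-like nuclei could no longer be tested. Without the T cell cluster, the lymphocyte-like value was −2.48 and not called (edgeR adjusted p = 0.865). Without the library aged 1, the change in endothelial-like nuclei was −4.58 in place of −2.56, with 1 UMI in the aged library that was left. Summed SGC markers were 1872.5, 1335 and 1329 CPM in NMSC-like nuclei and 1017, 587 and 565 CPM in MSC-like nuclei, lower in both aged libraries. Their part in the falls of Fabp7 there, and in those of Acsbg1 and Dbi below, was not tested.

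Acsbg1 and Dbi, which act on fatty acyl-CoA, had lower levels in the aged glia as well, again as a part of all UMIs. For each SGC-like nucleus the UMIs of both genes were more, not fewer, in the aged libraries. The 2933, 421 and 222 nuclei held 6493, 1927 and 1141 UMIs of Acsbg1 and 2366, 665 and 261 of Dbi. Acsbg1 fell by 0.44 ± 0.12 on the log2 scale in SGC-like (edgeR adjusted p = 0.00363), by 1.25 ± 0.22 in NMSC-like (7.47e-07) and by 1.78 ± 0.27 in MSC-like nuclei (2.30e-09), where its levels were 63.6, 25.5 and 8.17 CPM. The MSC-like value was −3.05 without aged 1, and the SGC-like call was lost after subtracting free RNA, with an estimate of −0.52 (edgeR adjusted p = 0.129). Its estimates in the 5 other classes were also below 0 and not called, and free RNA moved by −0.97. Dbi was called lower in 6 classes, by 0.78 ± 0.13 in SGC-like (edgeR adjusted p = 1.77e-07), 1.09 ± 0.20 in NMSC-like (3.95e-06), 1.14 ± 0.16 in MSC-like (1.15e-10), 0.94 ± 0.22 in neuron-like (0.00061), 1.25 ± 0.27 in fibroblast-like (0.000345) and 2.51 ± 0.34 in myeloid-like nuclei (0.000721). Aged 2 was lower in Dbi than aged 1 in each class, and without aged 1 the change was −1.71 in MSC-like, −1.42 in neuron-like and −2.18 in fibroblast-like nuclei, whereas without aged 2 it was −0.59 and −0.80 in the latter pair. Free RNA moved by −0.98 for Dbi, and after subtracting it the calls in SGC-like (−0.72, edgeR adjusted p = 0.0965), neuron-like (−0.95, 0.518) and fibroblast-like nuclei (−0.89, 0.368) were lost, with estimates that stayed below 0. DESeq2 called Acsbg1 in 1 class, NMSC-like nuclei, and Dbi in 3, SGC-like, NMSC-like and myeloid-like nuclei. Fabp3 was not called in any class, although its estimates were below 0 in all 8, between −2.98 and −0.36, with −0.53 in free RNA. By edgeR 0 of the 8 had an unadjusted p under 0.05, and DESeq2 called 0.

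**Figure D3:**
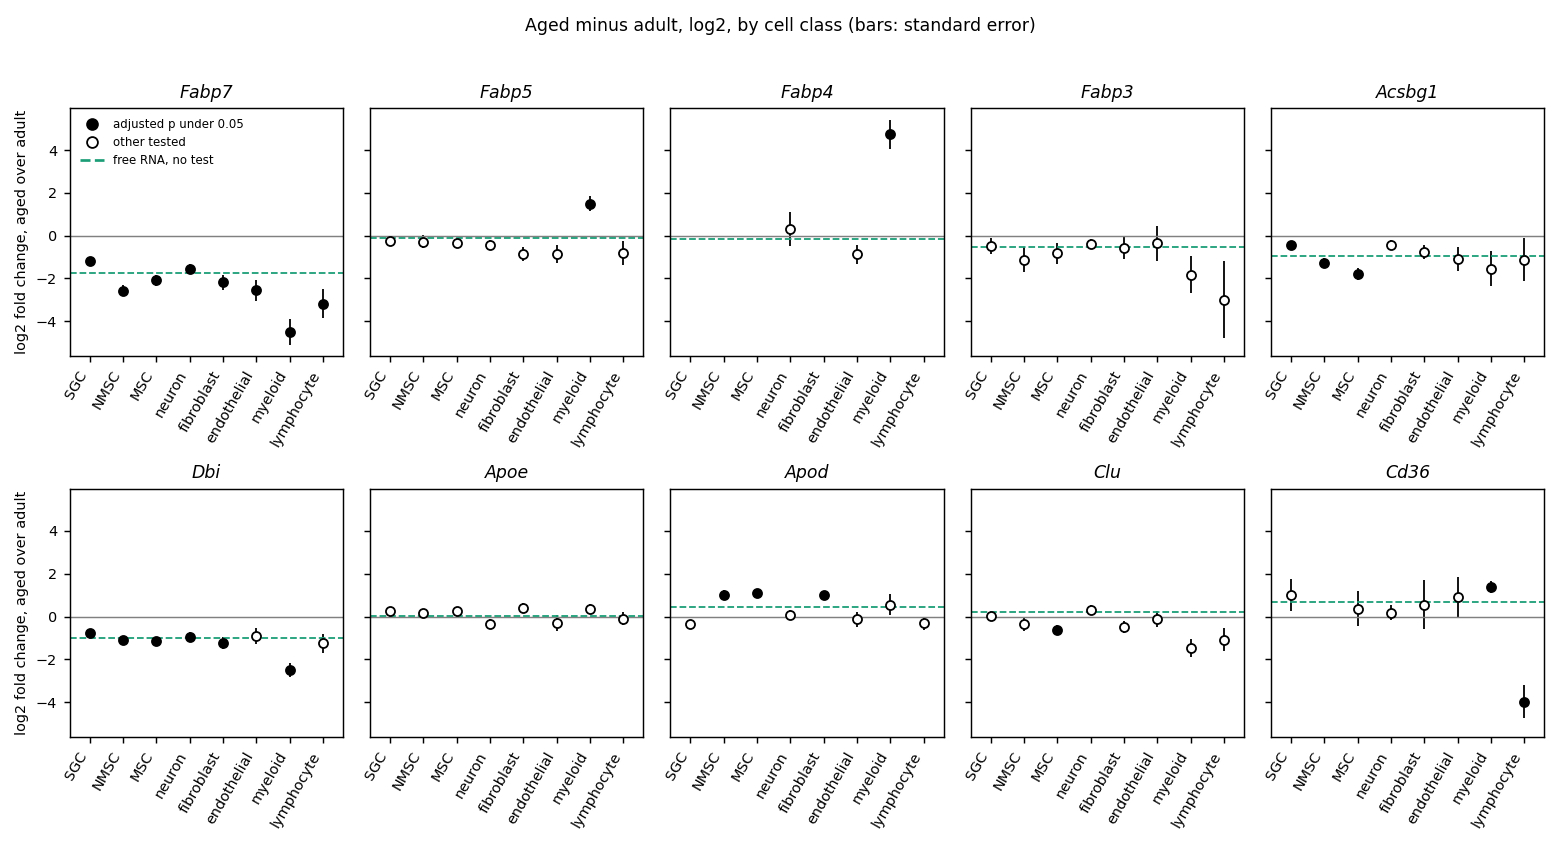
Log2 change from the adult to the aged libraries for each gene and class (edgeR estimate, bars are the SE), with filled points for called changes and a dashed line at the change in free RNA. Fabp7 lies below 0 in all 8 classes (−4.48 to −1.19), Dbi was called lower in 6, and Apod was called higher in 3.

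Among the secreted carriers, Apod was the one called higher in the aged libraries. In MSC-like nuclei it rose by 1.08 ± 0.14 on the log2 scale (edgeR adjusted p = 2.89e-12), with both aged libraries above the adult one. In fibroblast-like nuclei it rose by 1.00 ± 0.17 (edgeR adjusted p = 6.18e-07). In NMSC-like nuclei, at 195, 592 and 296 CPM, it rose by 1.03 ± 0.21 (edgeR adjusted p = 3.70e-05). The aged libraries differed there, and the value was 0.41 without aged 1 and not called by DESeq2. Summed fibroblast markers in these NMSC-like nuclei were 315, 1038 and 1000 CPM, higher in both aged libraries, and in MSC-like nuclei 1128, 1126 and 1018 CPM. The part of fibroblast RNA in either value was not tested. Free RNA held 0.45 more Apod on the log2 scale in the aged libraries. After subtracting it the changes were 1.20 in MSC-like, 0.96 in fibroblast-like and 2.79 in NMSC-like nuclei, all 3 still called. Free RNA was put at 17.7% of adult NMSC-like UMIs, and the step removed most of the 408 adult Apod UMIs there. SGC-like nuclei gave −0.34 (edgeR adjusted p = 0.0988). A UMI of Apod was found in 68.5%, 84.3% and 82.7% of fibroblast-like nuclei and, thinned to 1000 UMIs, in 48.0%, 68.0% and 65.4%. The shares in MSC-like nuclei were 61.0%, 83.6% and 79.3%, thinned 41.0%, 58.4% and 55.7%, and those in lymphocyte-like nuclei 52.7%, 51.7% and 36.1%, thinned 32.2%, 31.7% and 14.8%.

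The rise in fibroblast-like nuclei was unequal over their 3 clusters, which were looked at separately after the values had been seen. In the cluster with Lum, a collagen-binding proteoglycan gene of connective tissue, among its leading genes, Apod stood at 5160, 6814 and 7147 CPM and rose by 0.36 (edgeR adjusted p = 0.0459). The cluster with Pax9 among its leading genes held 1140, 1874 and 2909 CPM, a difference of 0.98 that was not called (0.0836). The cluster with Slc47a1 as its leading gene held 443, 335 and 357 CPM, a difference of −0.44 that was not called either (0.429). The Lum cluster made up 224 of 1172, 114 of 381 and 62 of 191 fibroblast-like nuclei, a larger share in the aged libraries. The part of this mix in the value for all fibroblast-like nuclei was not tested.

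**Figure D4:**
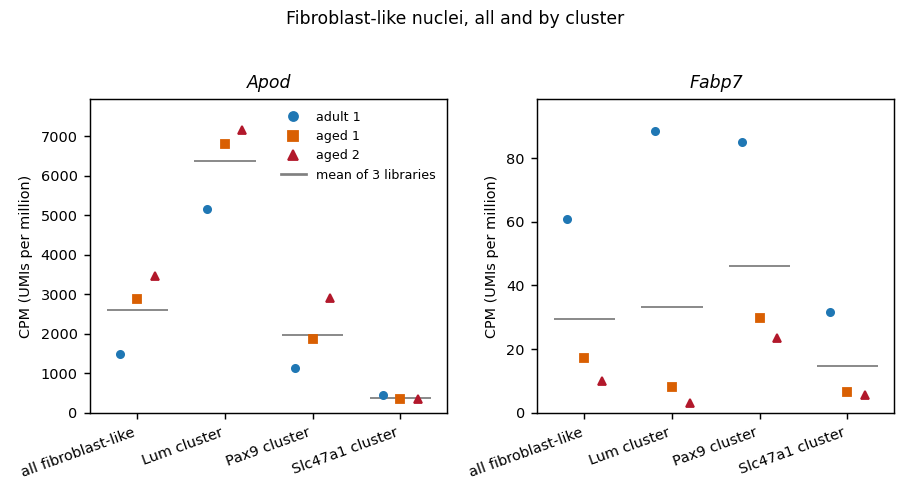
Apod and Fabp7 levels (CPM) in all fibroblast-like nuclei and in their 3 clusters, with 1 point for each library and a line at the mean of 3 libraries. For Apod, the Lum cluster (5160, 6814 and 7147) lies above the Pax9 cluster (1140, 1874 and 2909) and the Slc47a1 cluster (443, 335 and 357) in all 3 libraries.

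Apoe was not called in any class, with estimates from −0.34 to 0.41 and a free RNA change of 0.01. By edgeR 1 of the 8 classes had an unadjusted p under 0.05, and DESeq2 called 0. In SGC-like nuclei its estimate was 0.25 (edgeR adjusted p = 0.147), and aged 2 lay near the adult level. Clu was called lower in MSC-like nuclei only among the 8 classes, at 76.5, 63.3 and 35.7 CPM, by 0.62 ± 0.22 (edgeR adjusted p = 0.0396). That call was kept in 1 of 8 alternative settings, and the value was −1.20 without aged 1 and −0.32 without aged 2. In neuron-like nuclei Clu stood at 70.3, 119 and 69.0 CPM, a difference of 0.29 that was not called (0.519).

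Myeloid-like nuclei showed a different set of changes. Fabp5 rose by 1.50 ± 0.34 on the log2 scale (edgeR adjusted p = 0.0174), from 15 UMIs (adult) to 162 and 112 (aged). Cd36 rose by 1.37 ± 0.27 (edgeR adjusted p = 0.00765), from 37 UMIs to 291 and 316. Fabp4 had 1 adult UMI against 107 and 72 aged UMIs (edgeR adjusted p = 0.00133), a ratio of aged to adult level of 26.9 with a 95% counting interval of 4.76 to 1067. For all 3 genes both aged libraries lay above the adult one. None of the 3 was called by DESeq2 (adjusted p = 0.290 for Fabp5, 0.0942 for Cd36 and 0.0704 for Fabp4). After subtracting free RNA all 3 were called, with Fabp5 at 3.05. Free RNA was put at 16.1% of adult myeloid-like UMIs, and the step removed most of the 15 adult Fabp5 UMIs. The value of 3.05 therefore rests on few adult UMIs. Apoe, at 604, 873 and 606 CPM, was not called (0.377), and neither was Apod, at 257, 537 and 180 CPM (0.561), whose difference of 0.56 was −0.38 without aged 1. The summed myeloid markers were 1235, 1104 and 894 CPM, and those of adipocytes, which also make Fabp4 and Cd36, were 3.47, 0.948 and 0 CPM, with 4 of 6 markers at 0 in every library.

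The share of myeloid-like nuclei with a UMI moved in the same way. For Fabp4 it was 0.971% (95% interval 0.0246 to 5.29), 16.4% (11.8 to 21.9) and 15.7% (10.9 to 21.5), and in neuron-like nuclei, which should lack the gene, 0.218%, 0.362% and 0.0764%. For Cd36 it was 19.4%, 32.3% and 35.4% against 2.09%, 2.86% and 2.9% in neuron-like nuclei. For Fabp5 it was 8.74%, 37.2% and 29.8% against 14.1%, 7.5% and 8.2% in lymphocyte-like nuclei, so the adult share lay below that background. The median myeloid-like nucleus held 2291, 3654.5 and 3700 UMIs. After thinning to 1000 UMIs, Cd36 was found in 9.71%, 17.3% and 19.2%, Fabp5 in 2.91%, 11.5% and 8.08%, and Fabp4 in 0%, 7.08% and 6.57% of myeloid-like nuclei, where 0 of 103 adult nuclei allows a share of up to 2.91%.

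The calls for these 3 genes depended on 1 cluster. Myeloid-like nuclei fell into a cluster with Gpnmb among its leading genes, a gene of lipid-loaded and lysosome-rich macrophages, with 2, 120 and 97 nuclei, and another cluster with 101, 106 and 101 nuclei. In the Gpnmb cluster of the aged libraries Fabp5 stood at 178 and 184 CPM, Fabp4 at 138 and 125 CPM and Cd36 at 375 and 511 CPM, while the 2 adult nuclei held no UMI of these genes. Without that cluster, an alternative added after seeing the data, none of the 3 was called. Fabp5 then stood at 53.1, 109 and 46.3 CPM (log2 change 0.48, edgeR adjusted p = 0.952), Fabp4 at 3.54, 32.6 and 20.3 CPM (2.72, 0.893), still higher in both aged libraries, and Cd36 at 131, 89.7 and 145 CPM (−0.23, 0.980). The falls of Fabp7 and Dbi in myeloid-like nuclei were still called without it, at −3.84 (edgeR adjusted p = 3.29e-07) and −1.84 (0.00569). Summed SGC markers in myeloid-like nuclei were 632, 279 and 231 CPM, lower in the aged libraries like Fabp7 and Dbi, and their part in those falls was not tested.

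**Figure D5:**
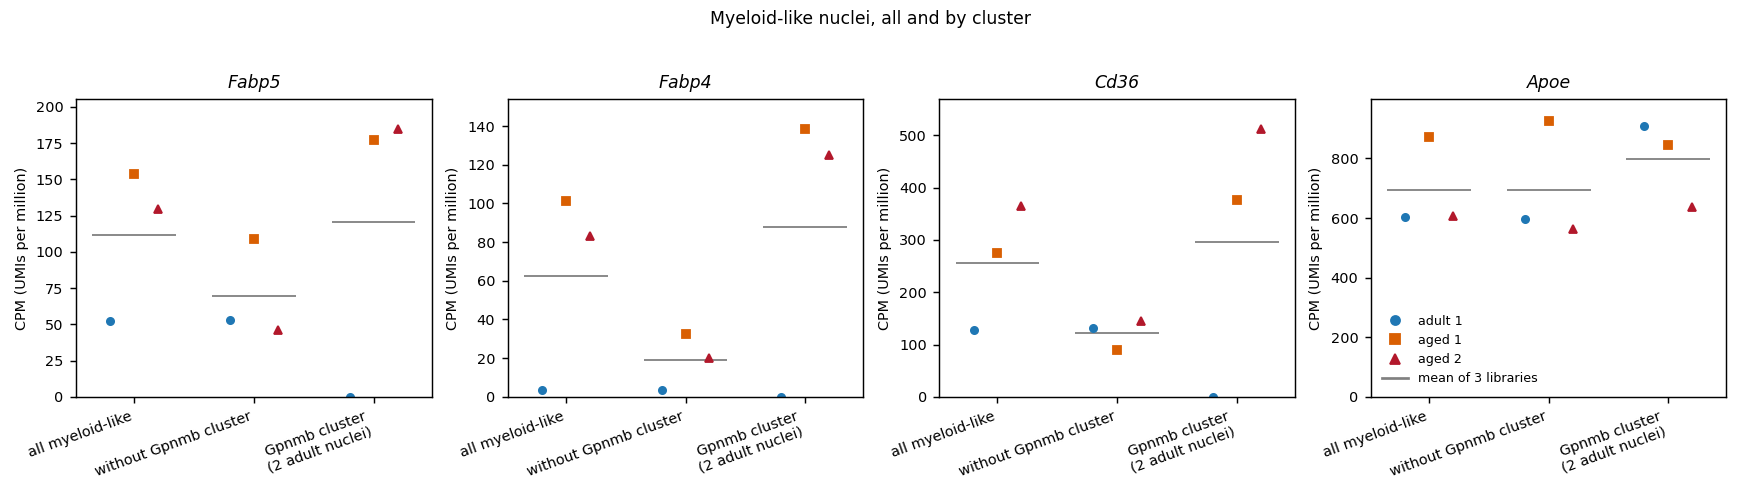
Levels of Fabp5, Fabp4, Cd36 and Apoe (CPM) in all myeloid-like nuclei, without the Gpnmb cluster and in that cluster, which held 2 adult nuclei, with 1 point for each library and a line at the mean of 3 libraries. Cd36 stands at 375 and 511 in the aged libraries of the Gpnmb cluster and at 131, 89.7 and 145 in the other nuclei.

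In lymphocyte-like nuclei Cd36 stood at 87.2, 5.68 and 5.10 CPM, with 45 UMIs in the adult library against 2 and 1 in the aged ones (edgeR adjusted p = 4.22e-05), an adult level 15.9 times the aged with a counting interval of 5.12 to 80.2. Of these adult UMIs, 36 came from the T cell cluster, whose leading gene was Ttn, the titin gene of striated muscle. Summed skeletal muscle markers in lymphocyte-like nuclei were 3043, 125 and 66.3 CPM, and those of adipocytes 21.3, 2.84 and 0 CPM, both high in the adult library like Cd36. The part of muscle or fat RNA in this value was not tested, and without the T cell cluster Cd36 could not be tested. In endothelial-like nuclei Fabp4 gave −0.88 ± 0.43 (edgeR adjusted p = 0.501) and Cd36, at 9.72, 24.1 and 10.1 CPM, was not called.

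Whether the age change of a gene was unequal between classes was tested in 1 edgeR model over all classes and libraries, as the change in a class minus the mean change of the other classes. The change of Fabp7 in SGC-like nuclei was less negative than the mean of the other classes, by 1.55 ± 0.29 on the log2 scale (edgeR adjusted p = 0.00509), a value that was 2.33 without aged 1 and 1.16 without aged 2. In this direction 0.914% of all genes tested were called in SGC-like nuclei. The changes of Fabp5 (2.21 ± 0.35, edgeR adjusted p = 0.000447) and Fabp4 (5.09 ± 1.29, 0.0303) in myeloid-like nuclei were above those of the other classes, where 1.71% of all genes were, and those of Fabp7 (−2.17 ± 0.56, 0.0355) and Dbi (−1.32 ± 0.35, 0.0375) were below, where 0.579% were. Cd36 in lymphocyte-like nuclei was below the other classes by 4.88 ± 0.78 (edgeR adjusted p = 0.00187), where 0.445% of all genes were. The differences for Cd36 in myeloid-like nuclei (1.44, 0.137) and for Apod in MSC-like (0.92, 0.468) and fibroblast-like nuclei (0.85, 0.430) were not called, so a rise of Apod particular to these classes was not shown. Without aged 1 the difference for Fabp7 in myeloid-like nuclei was −3.68, and over the alternatives it ran from −3.38 to −0.31 and kept its call in 3 of 7. The other called differences kept theirs in 6 of 7 (Fabp7 in SGC-like nuclei), 5 of 7 (Fabp5), 4 of 7 (Dbi), 3 of 7 (Fabp4) and 4 of 6 (Cd36). After subtracting free RNA none of the 6 was called. The estimates were then 1.79 for Fabp7 in SGC-like nuclei (edgeR adjusted p = 0.453), −3.01 for Fabp7 (0.357) and −2.35 for Dbi (0.106) in myeloid-like nuclei and −6.06 for Cd36 in lymphocyte-like nuclei (0.101), and those for Fabp5 and Fabp4 had no usable error.

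A wider list of 61 genes of lipid handling, chosen with earlier results known, was read in the same tests, against the same shares of all genes. Its median log2 change was between −0.13 and 0.06 in the 7 classes other than myeloid-like, where that of all genes tested was between −0.00 and 0.02. In SGC-like nuclei 3 of 47 rose and 7 fell, where 7.11% and 8.84% of all genes did, so the number that rose was no more than the share over all genes gives. Lrp2, the endocytic receptor megalin, which binds apolipoproteins, fell from 22.7 CPM to 6.66 and 5.03 (−2.08, edgeR adjusted p = 2.82e-10). Scarb1, the receptor of high-density lipoprotein, fell by 0.55 and Vldlr, a receptor for Apoe-containing lipoproteins, by 0.39. Pltp, which transfers phospholipids between lipoproteins, rose from 1.81 CPM to 7.45 and 11.6 (2.15, edgeR adjusted p = 0.001), and Rxra, a nuclear receptor partner in lipid sensing, rose by 0.91. Sorl1, an intracellular sorting receptor, rose by 0.50. The remaining genes that fell were Acadvl (−0.70) and Cpt1c (−0.65), listed with fatty acid oxidation, Acbd4 (−0.48), an acyl-CoA binding protein, and Abcg1 (−0.39), a sterol exporter. The call of Abcg1 was kept in 0 of 8 alternative settings, that of Sorl1 in 1 of 8, and those of Acbd4 and Vldlr in 2 of 8 each. Apoc1 (−1.17, 0.208) and Acsl5 (0.71, 0.246) were not called.

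Over the whole list, 2 genes rose and 6 fell of 45 in NMSC-like nuclei (4.45% and 5.07% of all genes), and 2 rose and 4 fell of 46 in MSC-like nuclei (3.94% and 6.34%), so the numbers that rose were near the shares over all genes. In MSC-like nuclei Scarb1 fell from 110 CPM to 36.3 and 37.8 (−1.68, edgeR adjusted p = 5.46e-13). Vldlr fell by 1.17 there, a value that was −2.07 without aged 1 and 0.48 with nuclei thinned to 1000 UMIs and that kept its call in 4 of 8 alternatives. Acadvl fell by 0.82, a call kept in 2 of 8. Abca1, the exporter that loads cholesterol onto apolipoproteins, rose from 83.5 CPM to 366 and 321 (1.95, edgeR adjusted p = 3.94e-24), with both aged libraries far above the adult one. Pmp2, the fatty acid binding protein of peripheral myelin, rose from 41.3 CPM to 94.0 and 83.7 (1.02, edgeR adjusted p = 0.00019), while the summed MSC markers were 41693, 17808 and 16326 CPM. In NMSC-like nuclei Vldlr (−1.51), Scarb1 (−1.11), Abcg1 (−1.10) and Acbd4 (−0.94) fell and Rxra rose by 1.77. Lrp2 had 22 UMIs in the adult library against 3 in the aged, an adult level 7.68 times the aged with a counting interval of 2.31 to 40.1, and Slc27a6, a fatty acid transporter, had 1 UMI against 23 (ratio 22.0, 3.57 to 905). The call of Slc27a6 was kept in 1 of 4 alternatives and that of Lrp2 in 2 of 4. Pmp2 (2.72, 0.0754) and Pltp (1.51, 0.185) were not called there.

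In myeloid-like nuclei 8 of 44 list genes rose and none fell (4.42% and 3.72% of all genes), whereas a marker gate in place of clusters gave 7 higher and 6 lower of 37. Lpl, the lipase of lipoprotein triglycerides, went from 17.3 CPM to 197 and 246 (3.72, edgeR adjusted p = 0.000197) and Abca1 from 205 CPM to 1341 and 1406 (2.80, 7.14e-06). Pparg, the fatty-acid-sensing nuclear receptor, rose by 2.02, Slc27a1, a fatty acid transporter, by 2.01, Plin2, which coats lipid droplets, by 1.89, Lipa, the lysosomal lipase, by 1.75, Abcg1 by 1.74 and Lrp1, a receptor of Apoe-containing particles, by 1.36. The list had a median change of 0.49 against 0.04 for all genes tested. Without the Gpnmb cluster edgeR called none of 33 list genes tested, with 4 at an unadjusted p under 0.05, as for Fabp5, Fabp4 and Cd36, while the median of those tested was 0.46. Abca1 then gave 1.18 (edgeR adjusted p = 0.0938), Lpl 1.86 (0.227) and Plin2 −0.02 (0.997).

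The other classes had few calls in this list. In fibroblast-like nuclei 3 of 46 rose and none fell (2.16% and 2.57% of all genes), Nr1h3 (1.45), the sterol-sensing receptor LXR alpha, Pltp (1.37) and Abca1, which went from 157 CPM to 302 and 307 (0.87, edgeR adjusted p = 0.00912). The call of Pltp was kept in 2 of 9 alternatives. In neuron-like nuclei none of 56 rose and 2 fell, where 1.73% and 7.25% of all genes did, so these numbers were no more than those shares give. The genes that fell were Vldlr (−0.70, edgeR adjusted p = 0.0301) and Fabp6, the bile acid binding protein of the intestine, with 46, 8 and 0 UMIs (0.000596). In endothelial-like nuclei edgeR called none of 41 in either direction (0.293% of all genes higher and 1.16% lower), with 2 at an unadjusted p under 0.05, and DESeq2 called 0. In lymphocyte-like nuclei 1 of 34 was lower and none higher, near the shares over all genes of 2.43% and 0.87%. The lower gene was Ppara, a nuclear receptor of fatty acid oxidation, with 46, 2 and 2 UMIs (edgeR adjusted p = 0.000104). The adult library was also the one high in the muscle markers there, whose part in this value was not tested.

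The genes whose levels over 39 sums of a class and a library were most like each of the 10 were found by Pearson's r of log2(CPM + 1) among 12735 genes, as a description, since the sums share libraries, depth and free RNA. Acsbg1 was most like Shank2 (0.958), Mmd2 (0.953) and Ptprz1 (0.946), and Fabp7 was most like Acsbg1 (0.838), Dbi (0.827) and Ncam2 (0.815). Dbi was most like Gpm6b (0.877), Cmtm5 (0.856) and Fxyd1 (0.851). Apod was most like Dcn (0.920), Cdkn1c (0.917) and Lum (0.913), of which Dcn and Lum are matrix genes of fibroblasts. Cd36 was most like Fcrls (0.917), Adap2 (0.912) and Nlrp1b (0.911), and Fabp4 was most like Rasgrp3 (0.870), Ctla2b (0.867) and Stab1 (0.865). Clu was most like Lrpap1 (0.909), Lgi3 (0.899) and the neurofilament gene Nefh (0.891). Apoe was most like Notch1 (0.877), Ccnd1 (0.858) and Aldh2 (0.852). Fabp5 was most like Pld3 (0.798), Ctsd (0.794) and Atp6v1a (0.777), of which Ctsd encodes a lysosomal protease, and Fabp3 was most like Hebp2 (0.840), Tpbgl (0.834) and Hspb1 (0.830).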

How the data were processed

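Nuclei of lumbar DRG were captured by PIP-seq, and read alignment and counting were done by the authors with Pipseeker against mm10, the build named in the submitters' processing notes. The deposited files hold raw UMI counts per gene and barcode for each library, not normalized by the authors. Gene places are from the GENCODE M21 annotation of GRCm38. Whether counting used strand was not given in the sources used here. The 10 genes, the marker lists and the lipid list were chosen with earlier results of these data known.

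The study's minimum of more than 1000 genes per barcode was applied. Counts were normalized and clustered in Seurat (version 5.3.0; 3000 variable genes without the 10 genes, 30 principal components, resolution 0.8, and 0.2 within the immune cluster). A cluster was named from at least 3 markers found in at least 10% of its nuclei and 2 times the level elsewhere (neurons from 5 of 8 markers). This naming rule was set after the clusters had been seen. Clusters with enough markers of a second class were left out, and no doublet caller was run. SGC, NMSC and MSC markers were allowed to occur together, as were NMSC markers in neurons. The marker gate named below called 253 nuclei of the NMSC-like class SGC-like and 148 NMSC-like, and left 774 unnamed. UMIs were summed per class and library and tested with edgeR (version 4.0.16, R 4.3.3; TMM, filterByExpr, quasi-likelihood, Benjamini-Hochberg over all genes tested), where a class held at least 20 nuclei in each library. The class difference was fitted over 16412 genes with a library block and 7 residual degrees of freedom. The fold changes are aged over adult. The study calls the libraries biological replicates. The p-values within a class rest on the spread between the aged pair, which edgeR shares over the genes tested. Fewer transcripts per nucleus and fewer RNA-rich nuclei in a class cannot be told apart in a sum.

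Alternatives were DESeq2 (version 1.42.0) in place of edgeR, its size factors, no filter on low counts, more than 2000 genes per nucleus, nuclei thinned to 1000 UMIs, free RNA subtracted, a marker gate per nucleus in place of clusters (not for NMSC-like nuclei, since most nuclei it gated were neuron-like), no nuclei of the top 5% of UMIs, and each aged library left out. Further alternatives on single clusters were chosen after seeing the data. They were myeloid-like nuclei without the Gpnmb cluster, lymphocyte-like nuclei without the T cell cluster, and the Lum, Pax9 and Slc47a1 fibroblast clusters each alone. Free RNA made up an estimated 12.5%, 8.34% and 10.7% of SGC-like UMIs and between 6.07% and 36.3% of those of the other classes tested. Each estimate used the marker list of another class that was lowest over its free RNA level, with all its UMIs counted as free RNA. The list could differ between libraries. For SGC-like nuclei it was neuron markers in adult and myeloid markers in aged 1 and aged 2. For neuron-like nuclei it was MSC markers in adult and aged 1 and myeloid markers in aged 2. On simulated data of the same depth the edgeR step recovered 46% of genes changed by 1 on the log2 scale and 96% of those changed by 2 in SGC-like nuclei, and 24% and 81% in myeloid-like nuclei. The simulation assumed the same spread between libraries for every gene and changed only genes with enough counts. Recovery in the real data need not be the same. Shares have exact Clopper-Pearson 95% intervals, which cover counting error only, and a count of 0 was given a limit of 3 counts. The genes named are all 10 genes, the called genes of the lipid list and up to 4 of its largest rises and falls in the classes where those are described, and the 3 genes most like each of the 10. The values of 1 gene of the lipid list are not reported here.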

Additional observations from a re-analysis of the deposited data

Results flagged for a closer look

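A difference between classes in the age change was called for 6 pairs of a gene and a class by the test of that difference. The change of Fabp7 in SGC-like nuclei lay 1.55 above the mean of the other classes on the log2 scale (2.33 without aged 1 and 1.16 without aged 2), and that of Fabp7 in myeloid-like nuclei lay −2.17 from it. Dbi in myeloid-like nuclei differed by −1.32. Fabp5 and Fabp4 in myeloid-like nuclei differed by 2.21 and 5.09, and the Gpnmb cluster held 120 of 226 and 97 of 198 of the aged myeloid-like nuclei. Cd36 in lymphocyte-like nuclei differed by −4.88, where the adult library was also high in the skeletal muscle markers, whose part was not tested.

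Signals also appeared in nuclei that entered no comparison. Cd36 had a mean of 204 CPM in erythroid-like nuclei (239, 134 and 239 CPM in adult, aged 1 and aged 2, from 15, 25 and 44 nuclei), against 10.3 CPM in free RNA. Apoe had a mean of 2355 CPM (2266, 2059 and 2741 CPM) in a cluster with both SGC and neuron markers that was left out, above its free RNA mean of 1331 CPM and above its mean in any named class. Another left-out cluster also had means above any named class and above free RNA. These were for Fabp7 (346 CPM, with 848, 123 and 66.9 in the libraries), Fabp5 (247), Fabp3 (122), Dbi (516), Apoe (1890) and Clu (349). Mitochondrial UMIs were 1.90% in that cluster, and haemoglobin genes were among its counted markers. The part of cytoplasmic RNA in these levels was not tested.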

How the results depend on the processing

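No paired analysis was possible, since nothing in the labels links the adult library to an aged one. The number of pairs of a gene and a class called lower, 19, was 7 with DESeq2, 10 with nuclei thinned to 1000 UMIs and 11 with free RNA subtracted, and 16 to 21 in the other settings. The number called higher, 6, was 2 with DESeq2 and 3 with thinning, and 5 to 8 otherwise. The number of class differences, 6, was 11 with no filter on low counts and, with free RNA subtracted, 2 (Apoe in neuron-like and lymphocyte-like nuclei, neither among the 6), and 4 to 7 otherwise. The change of Fabp7 in SGC-like nuclei was −1.26 to −1.17 and called in all 8 alternatives, and −1.25 to −1.13 with an aged library left out. Fabp7 in NMSC-like and MSC-like nuclei and Apod in MSC-like nuclei were also called in every alternative run, whereas Fabp5 in myeloid-like nuclei kept its call in 4 of 9, Cd36 in lymphocyte-like nuclei in 3 of 7 and Clu in MSC-like nuclei in 1 of 8. Directions turned for Apod in the Slc47a1 fibroblast cluster (−0.44), for Cd36 and Plin2 in myeloid-like nuclei without the Gpnmb cluster (−0.23 and −0.016), and, with thinning, for Sorl1 in SGC-like (−0.14) and Vldlr in MSC-like nuclei (0.48). Of estimates that were not called, direction turned for Apoe in SGC-like nuclei above 2000 genes (−0.15), Acsbg1 in neuron-like nuclei with free RNA subtracted (0.00011) and Apod in myeloid-like nuclei with the marker gate (−0.077). With an aged library left out, Apoe in SGC-like nuclei was −0.018 to 0.49, Clu in neuron-like nuclei −0.14 to 0.61 and Apod in myeloid-like nuclei −0.38 to 1.26. The cause was not tested. In the wider list, SGC-like nuclei (3 higher, 7 lower) had 0 and 1 with DESeq2 and none with thinning. NMSC-like nuclei (2 and 6) had 0 and 1 with DESeq2 and also with no filter on low counts. Fibroblast-like nuclei (3 and 0) had 0 higher with DESeq2 and with thinning. The 8 higher in myeloid-like nuclei were 6 to 10 except without the Gpnmb cluster (0), with 0 to 1 lower except for 6 with the marker gate. Recomputed age changes were tallied for the called pairs of a gene and a class and for a few uncalled ones, with none for Fabp3. Of these, 194 of 256 kept their direction and call, 54 lost the call, 3 gained one and 5 turned direction. Lymphocyte-like nuclei could not be tested above 2000 genes, and with an aged library left out values have no test. Free RNA and the 1 adult library limit what these data can show.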
